A study of Homo sapiens with 2 samples.

Results

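The messenger RNAs of 5 genes of translation initiation were examined for A-to-G mismatches in HEK-293T, a line of human embryonic kidney cells: EIF4A1, EIF4A2, EIF4G1, EIF4G2 and PABPC1. The cells of both groups carried a CIRTS-hADAR biosensor, which pairs an engineered RNA-targeting system with a human ADAR enzyme. The sample labels do not give how its parts are joined or what ABA does to them. One group had received the small molecule ABA and the other had not, and each group was 1 library from 1 biological replicate, so no difference between them has a replicate check. The 5 genes were taken by fixed hg19 intervals and strands, and every listed position inside them was used: 4223 positions in the ABA library and 4246 in the library without ABA, of 3510746 and 4070751 nuclear positions. The libraries shared 4185 positions in these genes: 457 lay in EIF4A1, 520 in EIF4A2, 1297 in EIF4G1, 1097 in EIF4G2 and 814 in PABPC1.

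Translation of most messages starts when the eIF4F complex gathers at the 5' cap. In it eIF4E binds the cap, eIF4G is the scaffold, and eIF4A is a helicase that unwinds structure in the leader so that the small ribosomal subunit can scan it. The poly(A)-binding protein binds the tail and eIF4G, and so links both ends of the message. ADAR enzymes deaminate adenosine to inosine in RNA, which sequencing reads as G, and the bases next to an adenosine are known to affect how well it is edited.

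The intervals were chromosome 17 from 7476024 to 7482323 (plus strand) for EIF4A1, chromosome 3 from 186501361 to 186507685 (plus) for EIF4A2 and from 184032283 to 184053146 (plus) for EIF4G1, chromosome 11 from 10818593 to 10830657 (minus) for EIF4G2, and chromosome 8 from 101715144 to 101734315 (minus) for PABPC1. A transcript annotation of hg19 was not used here, so exons and untranslated regions are not told apart. The files give a coordinate and 4 base counts per position, so the base surrounding an A is known only where it is another listed A. The RefSeq gene table, which is on another build and was used for names alone, sets snoRNA or miRNA genes inside all 5 genes and a read-through gene, SENP3-EIF4A1, over EIF4A1. It also names 13 pseudogenes of EIF4A1, 5 of EIF4A2 and 13 of PABPC1, whose reads could be exchanged with those of the parent gene. The sources used here do not give how reads aligning to several places were treated.

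Library depth was similar. The ABA library held 45277712 base reads over all listed positions and the library without ABA held 51092343, with a median depth of 10 reads in each. The 5 genes were deeper than most transcripts. Median depth at the shared positions was 44 reads with ABA and 34 without in EIF4A1, 17.5 and 18 in EIF4A2, 31 and 25 in EIF4G1, 35 and 35 in EIF4G2, and 46 and 48 in PABPC1. Reads on the opposite strand were at most 0.321% of a gene's own base reads with ABA and at most 0.821% without ABA, so the reads carried the strand of these genes.

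Pooled over the 5 transcripts, A-to-G mismatches were more frequent with ABA, by about the same ratio as the rest of the nuclear transcripts. Rates are G reads over A plus G reads, summed over positions listed in both libraries, and positions with a G share of 35% or more in either library, called variant-like, were left out. The pooled rate was 0.106% (157 of 148469 reads; 95% interval 0.0899 to 0.124) with ABA and 0.0555% (79 of 142267 reads; 0.0440 to 0.0692) without ABA, a ratio of 1.90 (1.44 to 2.53). At 2849632 other nuclear positions, on chromosomes 1 to 22 and X, the rate was 0.0793% with ABA and 0.0410% without ABA, with a ratio of 1.94 (1.90 to 1.97). The ratio of the 5 genes over that of the other positions was 0.984 (0.750 to 1.29), so a difference from the rest of the transcripts was not detectable at this depth. Intervals cover counting error only, and as 1 read covers several positions they are too narrow to that extent.

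The other mismatches at the same positions were rarer. A-to-C reads made up 0.0169% with ABA (25 reads) and 0.0113% without ABA (16 reads), a ratio of 1.5 (0.769 to 3.0). A-to-T reads made up 0.00539% with ABA (8 reads) and 0.00703% without ABA (10 reads), a ratio of 0.767 (0.263 to 2.16). Both intervals include 1, as that of A-to-G did not, although the A-to-C interval also includes the A-to-G ratio. At other nuclear positions, with far more reads, the A-to-C ratio was 1.13 (1.09 to 1.18) and the A-to-T ratio 1.03 (0.974 to 1.09).

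EIF4A1, the main eIF4A helicase of most growing cells, had the highest A-to-G rate of the 5 in the ABA library. It was 0.165% (37 of 22369 reads; 0.116 to 0.228) with ABA and 0.0611% (12 of 19647 reads; 0.0316 to 0.107) without ABA. The ratio was 2.71 (1.38 to 5.70). Its A-to-C and A-to-T reads together went the other way, with 4 reads (0.0179%) with ABA and 8 (0.0407%) without ABA.

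EIF4A2, a close paralogue of EIF4A1 with the same helicase fold, carried few G reads in either library. There were 5 of 9772 reads (0.0512%; 0.0166 to 0.119) with ABA and 2 of 9743 (0.0205%; 0.00249 to 0.0741) without ABA, a ratio of 2.49 (0.408 to 26.2). With ABA the rate of EIF4A1 was 3.23 times that of EIF4A2 (1.27 to 10.5), and without ABA it was 2.98 times (0.662 to 27.4). The interval with ABA excluded 1, but it is too narrow to the extent that 1 read covers several positions. The ratio of the ABA ratios of the paralogues, 1.09 (0.186 to 6.34), could not be told from 1. EIF4A1 was also the deeper transcript, with 49.0 reads per listed A position with ABA and 43.0 without ABA, against 18.8 and 18.7 in EIF4A2. At positions with a mean of 20 to under 50 reads, EIF4A1 had 0.174% (0.0974 to 0.287) with ABA. EIF4A2 had 0.0571% (0.0118 to 0.167) there, with overlapping intervals. The part of depth in the difference between the paralogues was not tested.

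EIF4G1, the scaffold that joins eIF4E, eIF4A and the poly(A)-binding protein, had a ratio like that of EIF4A1. Its rate was 0.0908% (36 of 39628 reads; 0.0636 to 0.126) with ABA and 0.0330% (11 of 33299 reads; 0.0165 to 0.0591) without ABA, a ratio of 2.75 (1.37 to 5.99). Leaving out its 2 variant-like positions decided this value. At 184037533 all reads were G, 23 of 23 with ABA and 22 of 22 without ABA, and at 184039666 likewise 20 of 20 and 19 of 19. With these kept the ratio was 1.28 (0.888 to 1.85).

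EIF4G2, also known as DAP5, is a relative of EIF4G1 that lacks the part binding eIF4E and serves translation of selected messages. It had the smallest ratio of the 5. The rate was 0.0891% (34 of 38180 reads; 0.0617 to 0.124) with ABA and 0.0641% (25 of 39004 reads; 0.0415 to 0.0946) without ABA, a ratio of 1.39 (0.805 to 2.43), whose interval includes both 1 and the ratio of the other nuclear positions. Both scaffolds stood at nearly the same rate with ABA, EIF4G1 over EIF4G2 being 1.02 (0.620 to 1.68), and the ratio without ABA was 0.515 (0.229 to 1.09). The ratio of their ABA ratios was 1.98 (0.846 to 4.63), so a difference between the scaffolds was not detectable.

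PABPC1, the main cytoplasmic poly(A)-binding protein, had the highest rate without ABA. There were 45 of 38520 reads (0.117%; 0.0852 to 0.156) with ABA and 29 of 40574 (0.0715%; 0.0479 to 0.103) without ABA, a ratio of 1.63 (1.0 to 2.70). The lower bound lay at 1 and fell under it when the position of most G reads was left out (1.56; 0.953 to 2.59) or when 20 reads were required (1.61; 0.976 to 2.69). Its 1 variant-like position, at 101715296, had 12 of 19 reads as G with ABA and 8 of 17 without ABA, and did not enter these values.

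**Figure D1:**
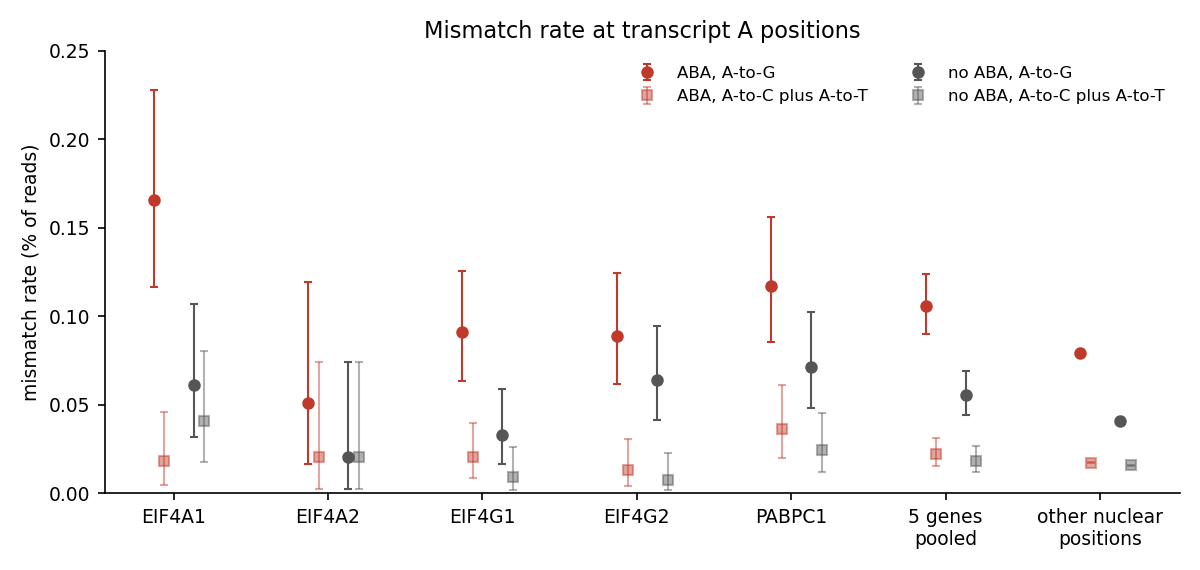
Mismatch rate in percent of reads (vertical axis) for each gene, for the 5 genes pooled and for the other nuclear positions, with ABA in red and without ABA in grey. Circles are A-to-G, squares are A-to-C plus A-to-T, and bars are exact 95% intervals of 1 library. The red circle stands above the grey one in all 5 genes, and the bars of EIF4A1 do not overlap (0.116 to 0.228 and 0.0316 to 0.107).

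In order of the rate with ABA, EIF4A1 came first, then PABPC1, EIF4G1, EIF4G2 and EIF4A2. Neighbours in this order had overlapping intervals. The intervals of EIF4A1, 0.116 to 0.228, and of EIF4A2, 0.0166 to 0.119, also overlapped slightly, although their ratio excluded 1. Against the other nuclear positions of the same library, the rate with ABA was 2.09 times as high in EIF4A1 (1.47 to 2.88) and 1.47 times in PABPC1 (1.07 to 1.97). Without ABA it was 1.49 times in EIF4A1 (0.770 to 2.61) and 1.74 times in PABPC1 (1.17 to 2.51). These ratios take in positions of all depths, and the rates differed by depth. From 50 reads up PABPC1 had 0.124% (0.0839 to 0.178) with ABA and 0.0950% (0.0609 to 0.141) without ABA, against 0.229% and 0.123% at other nuclear positions of that depth. EIF4A1 had 0.164% (0.102 to 0.251) with ABA and 0.0783% (0.0358 to 0.149) without ABA there. At 20 to under 50 reads PABPC1 had 0.0966% (0.0514 to 0.165) and 0.0281% (0.00766 to 0.0720), and EIF4A1 had 0.174% (0.0974 to 0.287) and 0.0278% (0.00336 to 0.10), against 0.0925% and 0.0501%. Of these 8 rates, that of EIF4A1 with ABA at 20 to under 50 reads lay above the other positions beyond its interval, and that of PABPC1 with ABA from 50 reads up lay below them.

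Depth moved with these rates. At positions with a mean under 20 reads the 5 genes had 0.0947% (10 reads; 0.0454 to 0.174) with ABA and 0.0190% (2 reads; 0.00230 to 0.0685) without ABA, and other nuclear positions had 0.0576% and 0.0290%. At 20 to under 50 reads the 5 genes had 0.0942% (0.0756 to 0.116) with ABA and 0.0425% (0.0299 to 0.0586) without ABA, and other nuclear positions had 0.0925% and 0.0501%. The intervals held the rates of the other positions. From 50 reads up, the 5 genes had 0.133% (0.101 to 0.171) with ABA and 0.0895% (0.0639 to 0.122) without ABA. Other nuclear positions had 0.229% (0.223 to 0.235) and 0.123% (0.119 to 0.127) there, so that the interval with ABA lay below that of other deep positions and the interval without ABA overlapped it. Of these deep positions 367 were in PABPC1 and 159 in EIF4A1, against 135 in EIF4G2, 5 in EIF4A2 and 2 in EIF4G1.

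The G reads were scattered over many positions, with a few repeats that lay almost entirely in the ABA library. With ABA 133 of 4182 positions (3.18%) had a G read, against 78 (1.87%) without ABA. Other nuclear positions had 0.975% and 0.551%, at lower depth. In the 5 genes 6 positions had a G read in both libraries, 127 had one with ABA alone and 72 without ABA alone. At other nuclear positions these numbers were 1577, 26196 and 14132, so a small overlap was general to the 2 libraries. At 18 of the 4182 positions there were at least 2 G reads with ABA, up to 5, and at 1 position without ABA, which had 2. Other nuclear positions also had more such repeats with ABA, at 2099 of 2849632 positions against 635 without ABA. Positions with a single G read held 73.2% of the G reads with ABA and 97.5% without ABA, against 81.2% and 89.8% at other nuclear positions.

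The positions with repeated G reads are set here against the number of positions of each gene. In the ABA library EIF4G2 had 7 of 1097, PABPC1 5 of 813, EIF4A1 4 of 457, EIF4G1 2 of 1295 and EIF4A2 0 of 520. The genes also differed in depth, and a difference between them in these numbers was not tested. In EIF4G2 the number of positions with any G read was the same, 25, in both libraries, and the difference between its 34 and 25 G reads came from these 7 positions. In EIF4G1 the number of positions differed, with 34 with ABA and 11 without ABA.

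By the rule for naming positions (at least 20 reads in both libraries and the most G reads over both), 4 positions were named, none with a difference past the test. The top position of EIF4A1, at 7479968, had 5 of 107 reads as G (4.67%; 1.53 to 10.6) with ABA and 1 of 97 (1.03%; 0.0261 to 5.61) without ABA. Another in EIF4A1, at 7478456, had 3 of 71 (4.23%; 0.880 to 11.9) with ABA and 0 of 56 without ABA, which allows a share of up to 5.36%. In EIF4G2 position 10823892 had 4 of 50 (8.0%; 2.22 to 19.2) with ABA and 1 of 47 (2.13%; 0.0539 to 11.3) without ABA. All 3 were higher with ABA, with overlapping intervals and an adjusted p of 1 by Fisher's exact test (Benjamini-Hochberg). The other named position is the variant-like 184037533 of EIF4G1, where all reads were G in both libraries.

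Some positions of PABPC1, chosen after their values were seen, lay close together. At 101724932 there were 2 of 83 reads with ABA and 0 of 86 without ABA, and at 101724938 there were 2 of 93 and 0 of 95. At 101724944 there was 1 of 100 reads with ABA and 1 of 104 without ABA. Whether these G reads came from the same molecules cannot be read from counts per position. The single position with repeated G reads without ABA was 101730075 of PABPC1, with 0 of 55 reads with ABA and 2 of 75 without ABA.

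Single positions were compared by a two-sided Fisher's exact test, adjusted by Benjamini-Hochberg over all 359090 nuclear positions with 20 or more reads in each library. Its p-values compare the 2 libraries and not the conditions. Of the 3201 such positions in the 5 genes, 0 were called in either direction at an adjusted p under 0.05, against 0% higher and 0% lower among all positions, and 0 had an unadjusted p under 0.05, against 0.0175% higher and 0.000557% lower among all positions. With no test applied, the G share was higher with ABA at 124 positions of the 5 genes and lower at 69, that is 3.87% and 2.16%, against 3.3% and 1.87% of all tested positions. Higher and lower positions numbered 28 and 10 of 374 in EIF4A1 (7.49% and 2.67%) and 3 and 2 of 184 in EIF4A2 (1.63% and 1.09%). They numbered 29 and 9 of 980 in EIF4G1 (2.96% and 0.918%) and 25 and 23 of 938 in EIF4G2 (2.67% and 2.45%). In PABPC1 they were 39 and 25 of 725 (5.38% and 3.45%). The near balance in EIF4G2 comes from the same reads as its small ratio, so it is not separate evidence.

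The rule for an edited site asked for 20 or more reads, 3 or more of them G, and a G share of 10% or more within 1 library, leaving out positions at 95% or more in both libraries. This takes out 184037533 and 184039666 of EIF4G1, where all reads were G in both. None of the 3473 covered positions of the 5 genes met the rule with ABA, which allows up to 0.0864%, and none of 3391 met it without ABA, which allows up to 0.0885%. Among all nuclear positions 0.0424% met it with ABA and 0.0197% without ABA, so an absence of edited sites is within what this number of positions can show. Below that share, position 10823892 of EIF4G2 had 8.0% in the ABA library.

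Where along a transcript the G reads fell was compared by dividing the listed positions of each gene into 3 equal segments in transcript order. Over the 5 genes the rate with ABA was 0.134% (66 reads; 0.103 to 0.170) in the 5' segment, 0.0952% (53 reads; 0.0713 to 0.125) in the middle and 0.0875% (38 reads; 0.0619 to 0.120) in the 3' segment. Without ABA it was 0.0661% (31 reads), 0.0599% (32 reads) and 0.0381% (16 reads) in the same order. The ratio of ABA over no ABA was 2.02 (1.30 to 3.21), 1.59 (1.01 to 2.55) and 2.3 (1.25 to 4.41), and no segment stood apart, the 5' ratio over the 3' ratio being 0.881 (0.427 to 1.82). The pooled 5' segment had the higher rate within the ABA library, by 1.53 times over the 3' segment (1.01 to 2.34), and by 1.73 times (0.920 to 3.39) without ABA. By gene the ratio with ABA excluded 1 in EIF4A1 alone, which held 23 of the 66 reads in the 5' segment and 2 of the 38 in the 3' segment. It was 1.62 (0.723 to 3.79) in PABPC1 and 1.29 (0.505 to 3.55) in EIF4G2. EIF4G1, at 0.678 (0.273 to 1.61), and EIF4A2, at 0.409 (0.00693 to 7.85), went the other way.

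EIF4A1 had the steepest course of the 5 genes with ABA. With ABA it had 23 of 8048 reads (0.286%; 0.181 to 0.429) in its 5' segment, 12 of 8187 (0.147%) in the middle and 2 of 6134 (0.0326%; 0.00395 to 0.118) in its 3' segment. Without ABA the counts were 5 of 6362, 6 of 6853 and 1 of 6432. The 5' rate was 8.77 times the 3' rate with ABA (2.17 to 76.7) and 5.06 times without ABA (0.566 to 239.1). All 4 positions of EIF4A1 with repeated G reads with ABA lay in its 5' segment, with 3, 2, 2 and 5 G reads. The ratio without these positions was not computed, so how far the course rests on them is not known. Without ABA the middle segment had the highest rate, 0.0876% against 0.0786% in the 5' segment, and the 3' segment held a single G read, so a course could not be told there. EIF4G1 ran differently, with 10, 11 and 15 reads from 5' to 3' with ABA and 5, 4 and 2 without ABA. Its 3' segment had a ratio of 5.83 (1.36 to 52.5) and its 5' segment 1.73 (0.539 to 6.45). The 5' ratio over the 3' ratio, 0.297 (0.0479 to 1.84), did not exclude equal ratios. In EIF4G2 the 3' segment had 8 reads with ABA and 2 without ABA, while the middle segment had 12 in both. PABPC1 had 18, 16 and 11 reads with ABA against 10, 10 and 9 without ABA.

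**Figure D2:**
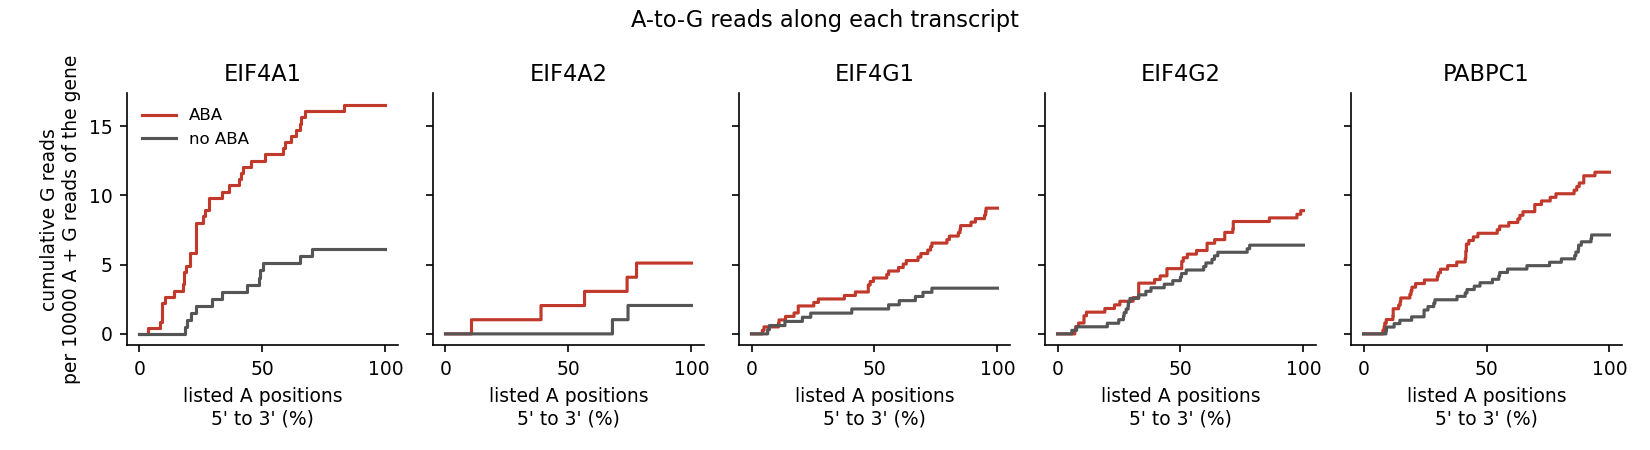
Cumulative G reads per 10000 A plus G reads of the gene (vertical axis) along the listed A positions of each gene, in percent from 5' to 3' (horizontal axis), with ABA in red and without ABA in grey. The red line of EIF4A1 climbs fastest in its 5' segment, which held 23 of its 37 G reads, and the lines of EIF4G2 run close together, ending at 34 and 25 reads.

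Positions were also joined into blocks of neighbours at most 100 nt apart. The 5 genes had 79 blocks, of which 75 had at least 200 reads in both libraries. The same test was adjusted over all 43870 nuclear blocks. Of the 75 blocks 0 were called in either direction, against 0.0137% of all blocks higher with ABA and 0% lower. Unadjusted exact p-values under 0.05 occurred in 1 of the 75 in the higher and 0 in the lower direction, against 0.545% and 0.0228% of all blocks. With no test applied, the rate was higher with ABA in 46 blocks and lower in 13, and 16 had no G read, that is 61.3% higher and 17.3% lower against 26.9% and 12.9% of all blocks. The blocks of these genes held a median of 2592 reads over both libraries and all blocks a median of 972, and a shallow block is less likely to hold a G read. By gene, higher and lower blocks numbered 6 and 1 in EIF4A1, 4 and 0 in EIF4A2, 17 and 4 in EIF4G1, 9 and 4 in EIF4G2, and 10 and 4 in PABPC1.

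The block with the unadjusted p under 0.05, named after its values were seen, lay in EIF4A1 from 7478440 to 7478575. It had 6 of 2278 reads as G (0.263%; 0.0967 to 0.572) with ABA and 0 of 1738 without ABA, which makes it at least 1.53-fold higher if 3 reads over the block are taken as the floor (exact p = 0.0398, Benjamini-Hochberg adjusted p = 1, Fisher's exact test). The deepest block of EIF4A1, its last, from 7481486 to 7482319, had 8 of 8435 reads (0.0948%) with ABA and 2 of 8368 (0.0239%) without ABA. Its next, from 7480664 to 7481022, had 6 of 4400 (0.136%) with ABA and 4 of 3574 (0.112%) without ABA. Both were higher with ABA, by ratios of 3.97 (0.792 to 38.4) and 1.22 (0.289 to 5.87) whose intervals include 1.

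The deepest blocks of the other genes held few G reads. In EIF4A2 the block from 186506914 to 186507622 had 2 G reads in each library, of 3117 with ABA and 3230 without ABA, and that from 186503672 to 186503835 had none. In EIF4G1 the block from 184039070 to 184039890 had 6 of 6320 with ABA and 3 of 5451 without ABA, and that from 184040154 to 184040741 had 1 of 3640 and 0 of 3369. In EIF4G2 the block from 10821638 to 10822382 had 7 of 7096 with ABA and 6 of 6970 without ABA. Its 3' terminal block, from 10818638 to 10819425, had 3 of 5128 and 0 of 6021. In PABPC1 the 3' terminal block, from 101715150 to 101715587, was lower with ABA, at 6 of 7362 reads (0.0815%) against 8 of 7221 (0.111%). Its first block, from 101733621 to 101734258, was higher, at 10 of 5394 (0.185%; 0.0889 to 0.341) with ABA against 4 of 6562 (0.0610%; 0.0166 to 0.156) without ABA (exact p = 0.0599, Benjamini-Hochberg adjusted p = 1, Fisher's exact test).

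Most of the excess with ABA lay at adenosines not followed by another listed adenosine. Of the 4182 positions, 2867 had no listed A on the 3' side. Their rate was 0.130% (130 of 100246 reads; 0.108 to 0.154) with ABA and 0.0562% (53 of 94340 reads; 0.0421 to 0.0735) without ABA, a ratio of 2.31 (1.66 to 3.24). The 1315 positions with a listed A on the 3' side had 0.0560% (27 of 48223 reads; 0.0369 to 0.0815) with ABA and 0.0542% (26 of 47927 reads; 0.0354 to 0.0795) without ABA, a ratio of 1.03 (0.580 to 1.84). The first ratio was 2.24 times the second (1.2 to 4.18, a normal approximation). The other nuclear positions ran the same way, with ratios of 2.14 (2.09 to 2.19) and 1.35 (1.30 to 1.41).

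With ABA the rate without an A on the 3' side was 2.32 times that with one (1.52 to 3.65), and without ABA it was 1.04 times (0.636 to 1.73). The A-to-C and A-to-T background of the 5 genes, at 0.0230% without and 0.0207% with an A on the 3' side in the ABA library, came from 23 and 10 reads. Without ABA it was 0.0159% and 0.0230%, from 15 and 11 reads. The share of G reads at positions without a 3' A was 82.8% with ABA and 67.1% without ABA, beside 68.6% of all positions of the 5 genes. At other nuclear positions it was 81.6% with ABA and 73.3% without ABA, beside 69.2% of positions. Of the 18 positions with at least 2 G reads with ABA, 16 had no A on the 3' side, against 1873 of 2099 such positions elsewhere in the nuclear transcripts, which is much the same share.

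Within EIF4G1 the contrast by neighbour was the widest of the 5 genes in the ABA library. With ABA, 35 of its 36 G reads were at positions without a 3' A, a rate of 0.120% (0.0837 to 0.167) against 0.00951% (0.000241 to 0.0530) at the others, 12.6 times as high (2.12 to 513.1). Without ABA they were 9 of 11. The ABA ratio without a 3' A over that with one was 7.64 in EIF4G1 (0.621 to 94.0), an interval that includes 1. A difference between the genes in this contrast was not tested. EIF4G2, whose overall ratio was smallest, had a ratio of 1.79 (0.936 to 3.54) where no A followed and 0.679 (0.199 to 2.14) where one did, from 28 and 16 reads and from 6 and 9 reads. PABPC1 had 2.02 (1.09 to 3.86) and 1.08 (0.442 to 2.62). EIF4A1 had the opposite order, 2.53 (1.2 to 5.80) and 3.39 (0.645 to 33.4), the second from 7 and 2 reads, with a ratio between them of 0.746 (0.133 to 4.19). EIF4A2 had too few reads for either, 4 and 1 without a 3' A and 1 and 1 with one.

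**Figure D3:**
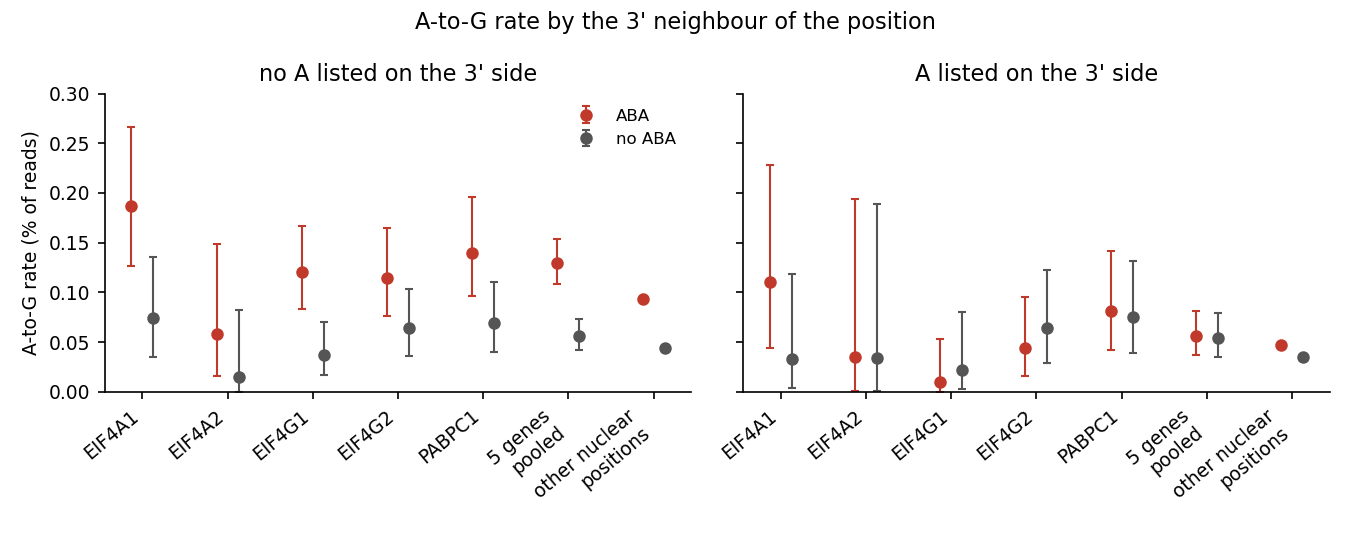
A-to-G rate in percent of reads (vertical axis) at positions without (left panel) and with (right panel) a listed A on the 3' side, for each gene, the 5 genes pooled and the other nuclear positions, with ABA in red and without ABA in grey. Bars are exact 95% intervals of 1 library. The pooled rates stand apart in the left panel (0.130% and 0.0562%) and together in the right one (0.0560% and 0.0542%).

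On the 5' side the order was turned. Positions preceded by a listed A had 0.126% (60 reads; 0.0962 to 0.162) with ABA and 0.0444% (21 reads; 0.0275 to 0.0678) without ABA, a ratio of 2.84 (1.7 to 4.92). Positions not preceded by one had 0.0962% (97 reads) and 0.0611% (58 reads), a ratio of 1.57 (1.13 to 2.22). The ratio not preceded by an A over the ratio preceded by one was 0.554 (0.306 to 1.0), at the edge of counting error. For other nuclear positions it was 0.872 (0.838 to 0.907). EIF4A1 and EIF4G1 had 1 G read each without ABA at positions preceded by an A, against 12 and 11 with ABA.

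Read depth relative to all nuclear reads differed among the genes, which share a pathway but not a common shift. Per 1000000 nuclear base reads at shared positions EIF4G1 had 991.0 with ABA and 810.8 without ABA, a ratio of 1.22 (1.2 to 1.24), and EIF4A1 had 559.0 and 478.1, a ratio of 1.17 (1.15 to 1.19). EIF4A2 had 244.1 and 237.0, a ratio of 1.03 (1.0 to 1.06). EIF4G2 had 953.8 and 948.5, a ratio of 1.01 (0.991 to 1.02), and PABPC1 had 963.2 and 987.6, a ratio of 0.975 (0.962 to 0.989), which became 1.07 when reads were scaled to all positions listed in each library. That scaling moved all 5 ratios up alike and kept their order. The depth intervals count 1 sequenced read again at each listed A it covers, so they are too narrow. Whether the ratios nearest to 1, those of EIF4A2 and PABPC1, differ from 1 cannot be told from them. Fewer cells with a message and less of it per cell cannot be told apart in such libraries.

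EIF4G1 was deeper with ABA in 29 of 30 blocks, and 7 of 8 blocks of EIF4A1 were, against 6 of 11 in EIF4A2, 9 of 16 in EIF4G2 and 6 of 14 in PABPC1. Of all 43870 nuclear blocks 51.2% were deeper with ABA. In EIF4A1 the depth ratio was 1.37 in the second block from the 5' end, 1.34 in the next, and 1.04 in the last. Median depth in the 5' segment of EIF4A1, which had its highest A-to-G rate, was 47 reads with ABA and 35 without ABA, and in its 3' segment 31.5 and 28. The part of depth in its course of rates was not tested. EIF4G1 blocks ran from 0.833 to 1.72 with a median of 1.26. EIF4A1 and EIF4G1, the genes with the highest depth ratios, were also those with the highest A-to-G ratios, an order of 5 genes that was not tested.

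**Figure D4:**
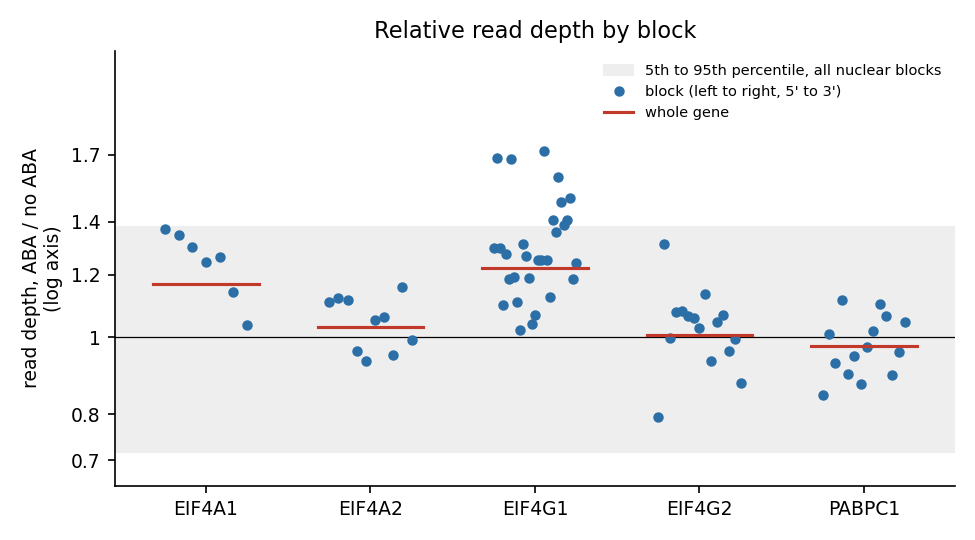
Read depth with ABA over depth without ABA (vertical log axis), relative to all nuclear reads, for each block with at least 200 reads in both libraries (points, 5' to 3' from left to right) and for each whole gene (red line). The grey band holds the middle 90% of all nuclear blocks, 0.716 to 1.38. All points of EIF4G1 lie above 1, its block at 0.833 being under the read limit and not drawn. Those of PABPC1 scatter around 1.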

How the data were processed

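Messenger RNA of HEK-293T cells was sequenced with and without ABA, 1 library each. The KAPA mRNA HyperPrep kit served for library preparation, per the labels. Trimming and alignment tools named in the submitters' processing notes are cutadapt and HISAT2, with genome build hg19 and no versions. The deposited values are counts of reads with each base at a position, not normalised. Per the file headers, A positions are listed on the plus strand and T positions on the minus strand, with a single base read cutoff of 5, and the lowest depth found was 6 reads. The base counter and the treatment of duplicate reads are not given in the sources used here. Minus-strand counts were complemented, so T to C is A-to-G.

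The genes are those of the given intervals, and genes, lists and tests were chosen with earlier results of these data known. Positions named were up to 5 per gene with the most G reads over both libraries, of at least 20 reads in each and at least 3 G reads in sum, which left 4. Blocks named were the 2 deepest per gene and any called by the adjusted test; others are said to be named after their values were seen. Intervals at 95% are Clopper-Pearson for rates and exact conditional binomial for ratios; those for a ratio of ratios are normal approximations on the log scale. Fisher's exact test, adjusted by Benjamini-Hochberg, ran over all nuclear positions or blocks. Both tests were checked on simulated data with large added shares. These exceeded the shares at single positions of the 5 genes, variant-like ones aside, and were at least as large as the block differences. How often smaller changes would be called was not simulated. A neighbouring A was read from listed positions, so one under the cutoff or across a splice junction is missed. A gene annotation of hg19 was not used here, so the planned list of other initiation factors was not run. Calculations used scipy 1.17.1, pandas 2.3.3 and numpy 2.4.6 in Python 3.11.15, figures matplotlib 3.10.9, with seed 1. Alternatives varied the position set, the variant-like limit, coverage, single positions, block gap and scaling. Splits by depth and without each gene were added after seeing the data.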

Additional observations from a re-analysis of the deposited data

Results flagged for a closer look

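Outside the comparisons, the strand opposite to the 5 genes held 1 A-to-G read with ABA, at the EIF4G2 interval. That is 0.524% of 191 reads (0.0133 to 2.88) with ABA, against 0 of 735 reads without ABA, which allows up to 0.408%. The difference was not past counting error (exact p = 0.206, two-sided Fisher's exact test of the 2 libraries).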

How the results depend on the processing

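Of 115 values under alternatives, 96 stayed within the main value's interval or near its count, 16 moved further and 3 crossed 1 where the main interval excluded it. The 3 are the depth ratio of PABPC1, 0.975 in the main setting and 1.07 under both alternatives, and the A-to-G ratio of EIF4A1 under 20 reads, 0.984. The main interval of that depth ratio is too narrow, as 1 read covers several positions. No replicate could be left out, and no paired analysis was possible because each condition has 1 library. The pooled ratio of 1.90 lay between 1.59, with variant-like positions kept, and 2.13, without EIF4G2. With these positions kept EIF4G1 had 1.28. By depth, EIF4A1 had 0.984 under 20 reads (1 G read in each library), 6.26 at 20 to under 50 and 2.10 from 50, and PABPC1 had 3.43 at 20 to under 50 and 1.31 from 50. Unadjusted, 1 block was higher. Edited sites with ABA became 1 at a share of 5%, and with a coverage minimum of 10 they were 1 with ABA and 1 without ABA, a variant-like position of PABPC1. Depth ratios with all listed positions, and with scaling to all chromosomes, were 1.29 and 1.28 for EIF4A1, 1.13 and 1.13 for EIF4A2, 1.35 and 1.34 for EIF4G1, 1.10 and 1.10 for EIF4G2, and 1.07 and 1.07 for PABPC1. The 3' segment of EIF4A2, 1.04 in the main setting, at 20 reads had 0 G reads with ABA and 2 without ABA, a ratio of 0. Without each gene in turn the ratio at positions without a 3' A was 2.12 to 2.52, and with one 0.831 to 1.22. G reads were few, 5 and 2 in EIF4A2, which limits all statements on single genes and positions.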
